A study of Mus musculus with 6 samples.

Results

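The genes described here encode the enzymes that shorten the poly(A) tails of messenger RNA in the cytoplasm, together with Btg4, the adaptor that directs them in the oocyte. All 10 genes of a named list were found among the 19938 genes with a probe set of their own: Cnot1, Cnot2, Cnot3, Cnot6, Cnot6l, Cnot7 and Cnot8 of the CCR4-NOT complex, Pan2 and Pan3 of the PAN complex, and Btg4. Each gene was represented by its brightest probe set with a single gene symbol, by the mean over the 6 arrays. The list groups genes by function, and it was drawn up with earlier results of these data known.

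The study measured RNA from mouse oocytes at the germinal vesicle stage, before meiosis resumes, in 3 wildtype samples and 3 samples homozygous for a mutation of Brwd1, a gene for a chromatin protein that combines WD repeats with bromodomains. All samples had a B6/C3H background and came from females of 2 to 6 months that received 5 IU equine chorionic gonadotropin, a hormone that drives follicle growth, 44 h before collection. A sample was a pool of 100 oocytes read on a separate Affymetrix mouse Gene ST array, and values are log2 levels normalized by the authors with RMA. The labels name neither the part of Brwd1 that is mutated nor a separate origin of the pools, so p-values reflect only how much these 6 pools vary, and that variation may be technical.

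Poly(A) tails protect messenger RNA and help its translation. In the CCR4-NOT complex, Cnot1 is the scaffold, Cnot2 and Cnot3 form a regulatory module on it, and the nuclease positions are held by Cnot6 or its paralog Cnot6l and by Cnot7 or its paralog Cnot8. A growing oocyte stores much of its messenger RNA in a translationally dormant state, and after meiosis resumes these stores are largely cleared, which depends on Btg4 bringing CCR4-NOT to the messages. The messages for several of the enzymes, among them Cnot7, Cnot6l and Pan2, are themselves stored and translated during maturation, so their level at the germinal vesicle stage describes a store.

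Promoters of the members were examined because Btg4 is made in few tissues, the oocyte chief among them, while the enzymes are made in most tissues. RefSeq promoter sequences of build GRCm38.p6 matched 8 of the 10 genes, with 14 start sites, and the 250 bases before each start were read. Btg4 and Cnot6 are shown, being the genes with the fewest and the most CpG dinucleotides among the 5 members with 1 listed start. The Btg4 sequence is the forward strand of chr9:51115751-51116000, the Cnot6 sequence is the reverse strand of chr11:49712723-49712972, and capitals mark each CpG.
Btg4: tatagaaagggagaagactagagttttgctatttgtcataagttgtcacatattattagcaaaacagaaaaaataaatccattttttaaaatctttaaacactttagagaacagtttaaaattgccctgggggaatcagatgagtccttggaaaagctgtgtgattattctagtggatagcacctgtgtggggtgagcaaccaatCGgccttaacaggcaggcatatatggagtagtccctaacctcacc
Cnot6: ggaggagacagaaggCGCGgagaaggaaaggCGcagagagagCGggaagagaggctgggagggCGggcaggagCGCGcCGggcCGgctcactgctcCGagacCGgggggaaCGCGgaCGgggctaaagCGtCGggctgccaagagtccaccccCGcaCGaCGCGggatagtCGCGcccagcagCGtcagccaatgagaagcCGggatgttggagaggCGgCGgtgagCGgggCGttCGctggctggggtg

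The Btg4 window held 1 CpG and the Cnot6 window 29. Over all 32851 promoter windows the median was 6 CpG, 18.8% held at most 1 and 6.78% held at least 29. Among the other members with 1 start, the count was 14 for Pan2, 22 for Cnot3 and 23 for Pan3. The 3 starts of Cnot6l had 27, 36 and 37 CpG. Cnot8 had 21 to 26 at 3 of its 4 starts and 3 at the other, and Cnot2 had 10 and 3. The Btg4 window had the fewest CpG of the 14 member windows. It was 38.0% G and C against 70.8% for Cnot6. The motif CANNTG, the E-box bound by basic helix-loop-helix factors, which reads the same on both strands, occurred 2 times in the Btg4 window and 0 times in that of Cnot6, and 66.2% of all windows held it. A window of Cnot6l also held CANNTG 2 times, and a window each of Cnot2, Cnot6l and Cnot8 held it 1 time. CCAAT, searched on both strands, occurred 1 time in the Btg4 and Cnot6 windows, 4 times for Cnot3 and 3 times for Pan2. It was found in 33.8% of all windows. These are matches of letters, not sites shown to be used.

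**Figure D1:**
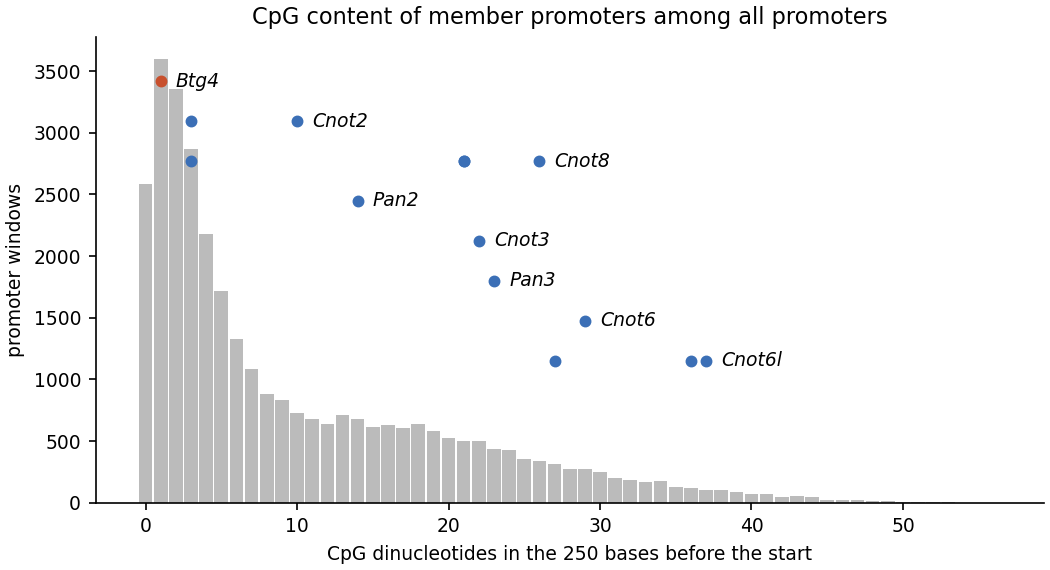
Grey bars give the number of promoter windows (y axis) with each count of CpG dinucleotides in the 250 bases before the start (x axis), over 32851 windows, and points mark the starts of 8 genes, at heights chosen only to separate them. Btg4 lies at 1 CpG and Cnot6 at 29. Cnot8 has 2 starts at 21.

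The arrays were checked against their labels first. Brwd1 was at 8.91, 9.08 and 8.98 on the log2 scale in wildtype oocytes and at 4.41, 4.56 and 4.50 in mutant oocytes (limma, adjusted p = 2.2e-06). As a guide to background, 1193 probe sets of olfactory and vomeronasal receptors had a 95th percentile of 4.47. The Brwd1 levels of the mutant lie at this guide, so the size of that difference is only a lower limit. All 12 oocyte markers were above this guide on every array, as were 3 of 11 measured granulosa and cumulus markers, 1 of 8 theca and stroma markers and 4 of 9 markers of blood, immune and endothelial cells. No marker in these lists passed the test between genotypes. Of the markers of blood, immune and endothelial cells, 8 of 9 were higher in the mutant, with a median difference of 0.18. C1qb, a complement gene of macrophages, was at 0.90 without overlap, while C1qa was at 0.18 with overlap. Csf1r, Adgre1 and Ptprc, with mean levels under the guide, were at 0.19, 0.067 and 0.053, with overlap. Cd68, the only lower one, was at -0.07. Of the granulosa and cumulus markers 9 of 11 were higher, with a median of 0.11. Has2 was at 0.49 with overlap, Gata4 at 0.29 without overlap, and Inha, 1 of 2 lower, at -0.28 with overlap. The mean levels of Has2 and Inha, 4.93 and 4.83, were near the guide, and each had a wildtype value under it. Of the theca and stroma markers 4 of 8 were higher, with a median of 0.022. Of the oocyte markers 8 of 12 were higher, with a median of 0.05. Groups without overlap, with the mutant higher, were found for 2 immune, 2 granulosa, 2 theca and 3 oocyte markers, against 10.5% of all genes. The median level of the immune markers on an array was 4.45 to 4.63 in wildtype and 4.61 to 4.76 in mutant oocytes, and that of the granulosa markers 4.41 to 4.68 and 4.37 to 4.79. Some of these marker differences are larger than any found below for the 10 genes, and their part in those values was not tested. Each of the 10 genes was above the guide on all 6 arrays, the lowest single value being 7.45, for Cnot6.

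None of the 10 genes passed the test between wildtype and mutant oocytes. Over all 23410 probe sets tested, 0.137% passed the threshold, an adjusted p under 0.05 (limma, Benjamini-Hochberg), with 0.0384% higher and 0.0982% lower in the mutant. Of the 10 genes 0 passed, with adjusted p-values from 0.324 to 0.984. The overall count of 32 fell to between 1 and 18 when any array was left out. At an unadjusted p under 0.05 (limma) 1 of the 10 genes passed, Btg4, where 14.9% of all genes did, and Btg4 no longer did so in 10 of 16 alternatives. The log2 differences, mutant minus wildtype, ran from -0.13 to 0.13, with 4 genes higher and 6 lower, and the largest fold was 1.097. The 95% confidence intervals of the 10 differences all lay between -0.30 and 0.29. For these brightest probe sets on the deposited values, no interval reached beyond a 1.23-fold difference in either direction. This bound does not cover other choices. The interval of a second, dimmer probe set of Cnot8 ran from -0.38 to 0.096, and after median centring Cnot2 was at -0.18. These are differences relative to the rest of the transcripts on the array, since RMA draws the arrays toward a common distribution. A general gain or loss of RNA would not be visible on this scale. Fewer expressing oocytes cannot be told apart from less RNA per oocyte. The deposited distributions were not equal, however. Array medians were 4.71, 4.7 and 4.69 in wildtype 1, 2 and 3 and 4.71, 4.79 and 4.77 in mutant 1, 2 and 3. The upper quartiles were 7.12, 7.1 and 7.11 in wildtype and 7.09, 7.04 and 7.07 in mutant oocytes. Quantile normalization again moved the median difference of the 10 genes from -0.022 to 0.027.

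**Figure D2:**
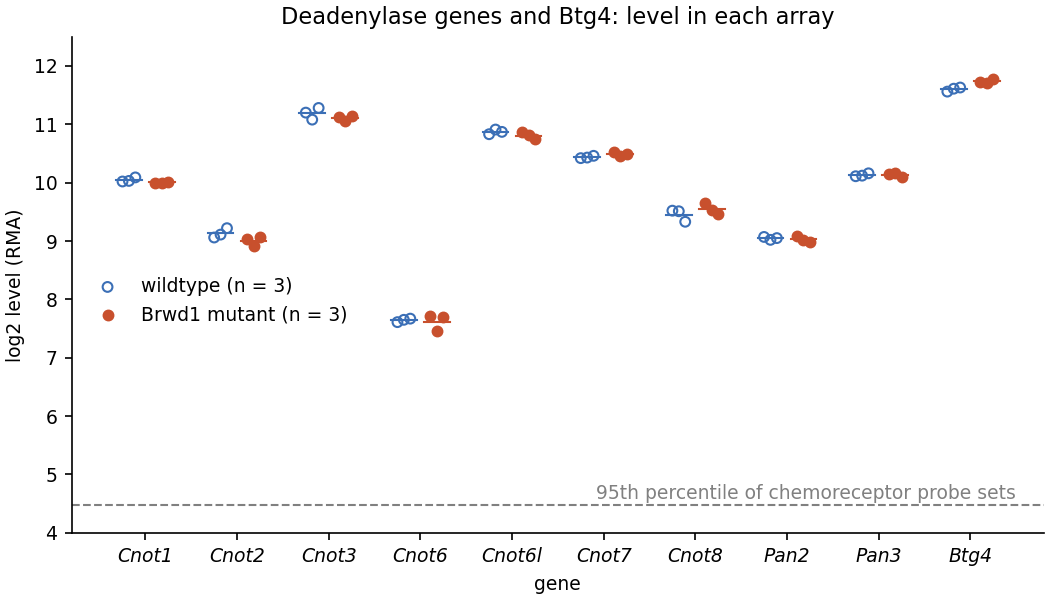
The log2 level (y axis) of each gene (x axis) is shown for 3 wildtype arrays (open) and 3 Brwd1 mutant arrays (filled), with a short line at each group mean and a dashed line at 4.47, the 95th percentile of olfactory and vomeronasal receptor probe sets. Every value lies at or above 7.45, and for each gene the groups lie within 0.13 of each other on average. Heights of different genes are not comparable, because probe sets differ in brightness.

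Btg4 had the smallest p of the 10 genes, though Cnot2 had a smaller one after median centring, without wildtype 1 and without mutant 3. The Btg4 level was 11.56, 11.61 and 11.63 in wildtype 1, 2 and 3 and 11.72, 11.71 and 11.77 in mutant 1, 2 and 3. Every mutant sample was above every wildtype sample, by a margin of 0.08 between the nearest values. The difference was 0.13 (SE 0.055; 95% interval 0.0039 to 0.26), and it did not pass (limma, adjusted p = 0.324). Groups that do not overlap, with the mutant higher, were found at 10.5% of all genes. The difference stayed positive in each of the 16 alternatives, from 0.077 after median centring to 0.16 after cyclic loess. Its unadjusted p, 0.045, was 0.057 to 0.13 when any array was left out, 0.082 with the replicate number as a block and 0.26 after median centring (limma).

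The scaffold and its regulatory module lay slightly lower in the mutant, without passing. The 4587 genes with a mean level within the range of the 10 genes also had a median below 0, at -0.043. That range reaches down to Cnot6 at 7.63, so these genes are not matched in level to Cnot1, Cnot2 and Cnot3. For the scaffold gene Cnot1, the level was 10.02, 10.03 and 10.09 in wildtype oocytes and 10, 10 and 10.01 in mutant oocytes. The groups did not overlap, but by only 0.01, the step of the deposited values, and the difference was -0.043 (SE 0.053; limma, adjusted p = 0.741). A further probe set of Cnot1 was at 9.88, 9.84 and 9.87 in wildtype oocytes and 9.83, 9.77 and 9.72 in mutant oocytes, again without overlap and with a difference of -0.090 (SE 0.056; limma, adjusted p = 0.505). Groups that do not overlap, with the mutant lower, were found at 9.33% of all genes.

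Cnot2, which with Cnot3 stabilises the complex, was at 9.06, 9.11 and 9.22 in wildtype oocytes and 9.03, 8.91 and 9.07 in mutant oocytes. The groups overlapped through mutant 3, which was above wildtype 1, and the difference of -0.13 (SE 0.072) lay farthest below 0 among the 10 (limma, adjusted p = 0.461). Cnot3 was at 11.20, 11.08 and 11.28 in wildtype oocytes and 11.13, 11.05 and 11.15 in mutant oocytes. Its groups overlapped, and the difference was -0.077 (SE 0.071; limma, adjusted p = 0.654).

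The nuclease position held by Cnot6 or Cnot6l showed little difference in either gene. Cnot6 was at 7.61, 7.65 and 7.67 in wildtype oocytes and at 7.71, 7.45 and 7.69 in mutant oocytes. Mutant 2 was the lowest of the 6 and the other mutant samples the highest, and the difference was -0.027 (SE 0.082; limma, adjusted p = 0.905), or 0.057 without mutant 2. Cnot6l, the form with the prominent role in maternal messenger RNA decay, was at 10.83, 10.91 and 10.87 in wildtype oocytes and at 10.86, 10.81 and 10.75 in mutant oocytes. Mutant 3 and 2 lay below all wildtype samples and mutant 1 among them, with a difference of -0.063 (SE 0.058; limma, adjusted p = 0.653).

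The remaining nuclease position gave differences on the opposite side of 0. Cnot7 was at 10.42, 10.43 and 10.46 in wildtype oocytes and at 10.53, 10.45 and 10.49 in mutant oocytes, overlapping only through mutant 2. Its difference was 0.053 (SE 0.054; 95% interval -0.075 to 0.18; limma, adjusted p = 0.685), and after median centring it was -0.0033. Cnot8 was at 9.52, 9.51 and 9.33 in wildtype oocytes and at 9.65, 9.53 and 9.47 in mutant oocytes. Wildtype 3 was the lowest, the groups overlapped, and the difference was 0.097 (SE 0.080; limma, adjusted p = 0.612). A second, dimmer probe set of Cnot8 had the opposite sign, at 6.48, 6.26 and 6.25 in wildtype oocytes and 6.09, 6.11 and 6.36 in mutant oocytes (difference -0.14, SE 0.10; limma, adjusted p = 0.553), so the mean of both was -0.023.

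Whether the balance between the paralogs moved was tested within each array, in 2 pairs. Subtraction removes only an array offset that both genes of a pair share. The Cnot6l minus Cnot6 value differed between mutant and wildtype by -0.037 on the log2 scale (exact permutation test, two-sided, p = 0.8, adjusted 0.8). The Cnot7 minus Cnot8 value differed by -0.043 (exact permutation test, two-sided, p = 0.7, adjusted 0.8), but by 0.077 with both probe sets of Cnot8 averaged and 0.030 without wildtype 3. The Cnot6l minus Cnot6 value turned as well without mutant 3, to 0.028, and was -0.086 after quantile normalization again. Without mutant 2 it was -0.12 (exact permutation test, two-sided, p = 0.1). With 3 samples against 3 the smallest p this test can give is 0.1, so it could not have passed. The spread of the first value was an SD of 0.031 in wildtype oocytes and 0.15 in mutant oocytes, and that of the other 0.13 and 0.072, so both changes are within the spread of at least 1 group.

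The PAN complex, in which Pan2 is the nuclease and Pan3 the subunit that binds poly(A)-binding protein, gave the differences closest to 0 on the deposited values. Under the other scalings other genes lay closer: Cnot1 at -0.016 after quantile normalization again, Cnot6 at 0.0011 after cyclic loess and Cnot7 at -0.0033 after median centring. Pan2 was at 9.07, 9.02 and 9.05 in wildtype oocytes and at 9.09, 9.02 and 8.98 in mutant oocytes. The highest and the lowest value were both in mutant samples, and the difference was -0.017 (SE 0.057; 95% interval -0.15 to 0.12; limma, adjusted p = 0.915). Pan3 was at 10.11, 10.12 and 10.16 in wildtype oocytes and at 10.15, 10.16 and 10.09 in mutant oocytes, which put the mutant 0.0033 higher (SE 0.054; 95% interval -0.13 to 0.13; limma, adjusted p = 0.984). Its groups covered nearly the same range.

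**Figure D3:**
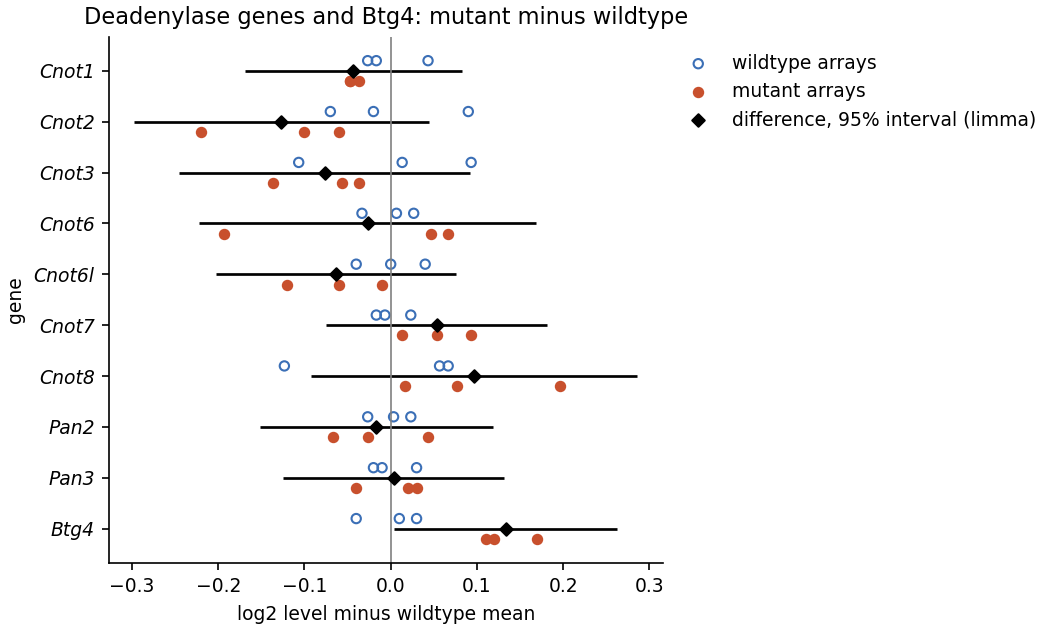
For each gene (y axis), circles give the 3 wildtype arrays and filled points the 3 mutant arrays as the log2 level minus the wildtype mean (x axis), and diamonds give the mutant minus wildtype difference with its 95% interval from limma. Only the Btg4 interval, 0.0039 to 0.26, leaves out 0, without adjustment for the number of probe sets tested, and not when any array is left out.

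As a group, the 10 genes had a median difference of -0.022, against 0.013 over all 19938 genes and -0.043 over the 4587 genes whose mean level lay within the same range, 7.63 to 11.67, so it was below the former and above the latter. The sign of the group median turned after quantile normalization again, to 0.027, and after cyclic loess, to 0.0089. The median size of the difference, regardless of sign, was 0.058 for the 10 genes and 0.090 both over all genes and over the genes in that range of levels. Groups without overlap were found for 2 of the 10 genes, Btg4 and Cnot1, against 19.8% of all genes and 26.3% of those in the same range of levels. The SE had a median of 0.058 for the 10 genes and 0.073 for genes in that range. The range reaches down to 7.63 through Cnot6 alone, the next lowest being Pan2 at 9.04. The genes in it were thus not matched in level to the 10, and these comparisons are descriptive.

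Genes whose pattern over the 6 arrays was most like that of Btg4 were sought among 9496 named genes above the median level, by the root mean square difference after each gene's own mean was subtracted. The nearest were Nxf1, the main export receptor of messenger RNA, at 0.018, Lrch1 at 0.018, and Rnps1, an RNA-binding protein of the exon junction complex, at 0.021. Nxf1 was at 9.69, 9.74 and 9.76 in wildtype oocytes and 9.89, 9.84 and 9.88 in mutant oocytes. The differences between groups were 0.14, 0.12 and 0.16 for Nxf1, Lrch1 and Rnps1, and none passed (limma, adjusted p = 0.302, 0.382 and 0.271). These genes were picked for the likeness and share the arrays with Btg4, so the likeness is a description.

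Other genes of the same machinery were read from 6 lists. In either direction 0 of their 60 measured genes passed the test, where 0.137% of all probe sets tested did. Over all genes the median difference was 0.013. Groups without overlap were found at 10.5% of all genes with the mutant higher and 9.33% with the mutant lower. Among 5 other CCR4-NOT subunits and partners the median difference was -0.030, with Cnot10, a subunit bound to the scaffold, at -0.12 and Cnot11 at -0.043. Of the relatives of Btg4, 4 of 5 were measured, with a median of -0.0083. Tob1, an adaptor that links CCR4-NOT to poly(A)-binding protein, was at 8.15, 8.21 and 8.16 in wildtype oocytes and 8.46, 8.46 and 8.66 in mutant oocytes. All mutant samples were above all wildtype samples, and the difference of 0.35 (SE 0.073) did not pass (limma, adjusted p = 0.144). Tob2 was at 0.060.

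The 7 other deadenylases and related nucleases had a median of -0.16, with 5 lower and 2 higher. Pnldc1, the trimmer of piRNA ends, was at 6.41, 6.43 and 6.47 in wildtype oocytes and 6.12, 6.17 and 6.21 in mutant oocytes, without overlap (difference -0.27, SE 0.056; limma, adjusted p = 0.144). Pde12, which removes poly(A) in mitochondria, was at 0.32 with groups that overlapped (limma, adjusted p = 0.260). The list of RNA-binding proteins that recruit deadenylases, 14 of 16 measured, had a median of 0.070. Nanos2, which binds the scaffold of the complex and is best known from male germ cells, was at 9.59, 9.49 and 9.56 in wildtype oocytes and 9.20, 9.09 and 9.14 in mutant oocytes. The mutant samples all lay lower, and the difference of -0.40 (SE 0.060) had the smallest adjusted p of these lists without passing (limma, adjusted p = 0.0962). Samd4, a mammalian Smaug protein, was at 0.21, with a mean level of 4.77, near the guide of 4.47. Its difference was 0.15 after quantile normalization again, 0.14 after cyclic loess and 0.15 after median centring.

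In the list of poly(A) tail addition and binding, 12 of 13 genes were measured and the median was 0.0067. Pabpn1l, a poly(A)-binding protein of the oocyte that works with Btg4, was at 9.47, 9.42 and 9.40 in wildtype oocytes and 9.72, 9.68 and 9.60 in mutant oocytes, without overlap (difference 0.24, SE 0.059; limma, adjusted p = 0.184). Pabpc1, the general cytoplasmic poly(A)-binding protein, was at 0.27 (limma, adjusted p = 0.227), and signal from its similar copies is uncertain. Among 18 genes of decapping and the exonucleases, which act after the tail is removed, the median was -0.0033. Of these 18 genes, 2 had a mean level at or under the guide. Xrn1, the nuclease that degrades decapped messages, was at 6.76, 6.82 and 6.98 in wildtype oocytes and 6.69, 6.32 and 6.38 in mutant oocytes, without overlap (difference -0.39, SE 0.11; limma, adjusted p = 0.219), and Lsm1, a subunit of the ring that promotes decapping, was at 0.14. The genes named from these lists are those with the smallest p-values in each, and some of their values moved widely: that of Cnot10 ran from -0.19 to -0.027 without 1 array, and that of Tob2 was 0.0033 after median centring.

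**Figure D4:**
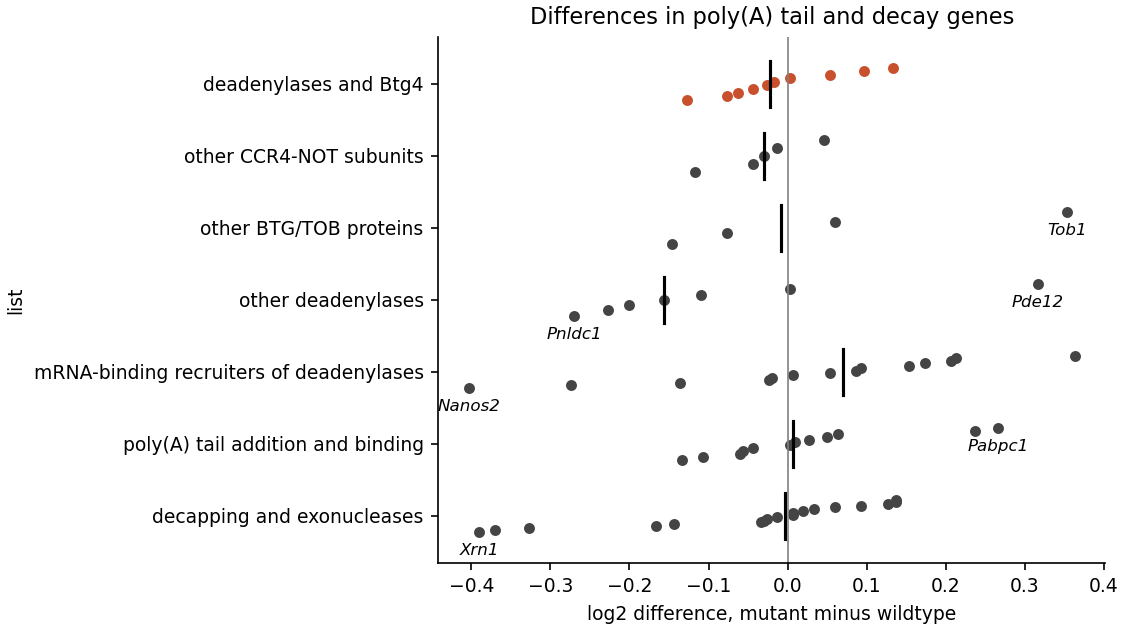
Each point is the log2 difference, mutant minus wildtype (x axis), of 1 gene, grouped by list (y axis), with the 10 deadenylase and Btg4 genes in colour and a vertical line at the median of each list. The 10 genes span -0.13 to 0.13, while single genes of the other lists, such as Nanos2 at -0.40 and Tob1 at 0.35, lie farther from 0, without passing the test.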

How the data were processed

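Levels were measured on 6 arrays, 3 per group, each from 1 ng of total RNA amplified with the NuGEN Ovation Pico system, per the labels' protocols. The deposited values are log2 values that the authors made with Affymetrix Expression Console 1.1 and RMA, per the submitters' processing notes; the table itself does not name its scale, and the genome build behind the array's annotation was not given in the sources used. RMA compresses differences near background.

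Of 35556 probe sets, 21789 had 1 gene symbol in the array annotation, 1621 several and 12146 none listed; 21698 of the single symbols were matched by gene identifier to RefSeq. The 23410 probe sets with a symbol were tested with limma 3.58.1 under R 4.3.3, using lmFit and eBayes without covariates or a filter on level and with two-sided p-values, with Benjamini-Hochberg adjustment over all of them and a threshold of 0.05. The number of arrays limits the precision. Members and lists were chosen with earlier results of these data known. The genes named are the 10 members, Brwd1, the 2 genes of each other list with the smallest p, and the 3 nearest Btg4 in pattern.

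In 5 simulated runs of the mutant against wildtype comparison, 200 of 23410 probe sets were changed. Recovery was 2% for a log2 difference of 0.25, 32.8% for 0.5, 85.6% for 1 and 98.8% for 2, and 3.69% of calls were false. The simulated noise was normal and independent between probe sets and arrays, without array or normalization effects. These rates therefore need not hold for the deposited values. The alternatives were the replicate block, filters on dim probe sets, other normalizations, other variance settings, array weights, all probe sets, gene means and the omission of each array.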

Additional observations from a re-analysis of the deposited data

How the results depend on the processing

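In 160 recomputed values for the single genes, 0 passed the threshold (limma; the smallest adjusted p was 0.114, for Btg4 with trend and robust settings), and 147 kept their sign. The 13 that turned lay between -0.053 and 0.057. Cnot6 was at 0.036 after quantile normalization again, 0.0011 after cyclic loess and 0.057 without mutant 2, and ran from -0.073 to 0.057 over the omissions of an array. Pan2 was at 0.026 and 0.017 under those normalizations and at 0.0083 without mutant 3, with a range of -0.047 to 0.0083 over the omissions. Pan3 was at -0.053 after median centring, -0.0067 without wildtype 1, -0.0017 without wildtype 2, -0.0050 without mutant 1 and -0.010 without mutant 2, with a range of -0.010 to 0.025. Cnot7 was at -0.0033 after median centring, and Cnot8 at -0.023 as the mean of its probe sets. The median of the 10 genes was 0.027 after quantile normalization again and -0.078 after median centring. The median of all genes itself moved from 0.013 to -0.043 with centring. The median of the 10 genes ran from -0.044 to -0.011 without 1 array.

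The Cnot7 minus Cnot8 change was 0.077 with gene means and ran from -0.085 to 0.030 without 1 array, turning without wildtype 3. The Cnot6l minus Cnot6 change ran from -0.12 to 0.028, turning without mutant 3.

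The count over all probe sets, 32, was 76 with trend and robust settings and 1 when all probe sets of the table were tested. Leaving out wildtype 3 gave 18, mutant 3 gave 10 and mutant 2 gave 3, and leaving out any of the other 3 arrays (wildtype 1, wildtype 2, mutant 1) gave 1. With the replicate number as a block it was 1, and 0 of the 10 genes passed. Deviations of samples with the same number correlated at -0.0015, -0.031 and 0.036. The labels do not say that a number pairs samples. With 3 samples per group these correlations cannot show whether such samples were handled together. The causes of these shifts were not tested. Differences of the size seen in the 10 genes are below what 3 arrays per group usually detect after adjustment over all probe sets.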
